A study of Xenopus laevis with 2 samples.

Results

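Gene deserts were defined here as stretches of at least 500 kb, between neighbouring genes of any biotype, in the RefSeq gene table of the Xenopus laevis assembly v10.1. Gene spans were merged on each of the 18 assembled chromosomes, and the gaps between the merged spans were taken. Of 39993 gaps, 238 reached this length (0.595%). A peak was assigned to a desert when its midpoint lay inside. This placed 17564 of 325974 peaks of replicate 1 (5.39%) and 15045 of 277551 peaks of replicate 2 (5.42%) in deserts. The length rule used no measured value, although the members were chosen with earlier results of these data known.

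The study profiled chromatin before zygotic genome activation (ZGA), the stage at which the embryo starts broad transcription of its own genes. Accessible DNA was marked by CATaDa, in which an untethered bacterial Dam methylase methylates adenine in GATC motifs wherever it can reach the DNA. All embryos of the group received the same agent, 2.3 ng of a Dam-only construct (pRN3P_AID-Dam-only) injected at the 1-cell stage. Whole embryos were collected at the 256-cell stage (4.5 hpf), 500 embryos in each of 2 replicates, so every value is an average over all cells and all embryos of a pool. The 2 samples form 1 group. With differences within 2 samples, exact permutation of their signs (two-sided) cannot go below p = 0.5, so no test was run and differences are set against the spread between the replicates. Read numbers are not held in the peak lists, so depth is unknown and no counting interval can be given.

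Gene deserts are a known feature of vertebrate genomes. Many lie beside genes that control development, and in mammals and fish a number of them hold enhancers that act on a promoter at a great distance. X. laevis is an allotetraploid frog with an L and an S subgenome. Many genes therefore exist as a homeologous pair, and the deserts beside them can too. Because Dam marks GATC motifs only, a stretch poor in such motifs gives few peaks whatever its accessibility. Motif density was not measured here, and its part in the values below was not tested.

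The deserts summed to 164.56 Mb, which was 11.8% of the length of all gaps and 6.0% of the assembled chromosomes. Their median length was 638 kb, the longest spanned 1325 kb, and 14 reached 1 Mb. The median of all gaps was 11.0 kb. The L chromosomes held 120 deserts (83.8 Mb, 5.62% of their length) and the S chromosomes held 118 (80.8 Mb, 6.45%). Chromosomes 1L and 5S had most, with 22 each, and 9_10S had fewest, with 7. By share of length, 4S stood highest at 10.7% and 9_10S lowest at 3.52%.

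Neural adhesion genes made up a larger share of the genes beside deserts than of those beside other gaps, while the remaining gene groups were close to their share beside gaps of 200 to 500 kb. Of 248 named protein-coding genes next to a desert, 51 (20.6%) belonged to a list of neural adhesion, guidance, channel and synapse genes, compared with 7.60% next to gaps of 200 to 500 kb and 2.40% of all 22411 named protein-coding genes. Developmental transcription factors numbered 30 of 248 (12.1%), against 10.6% next to gaps of 200 to 500 kb and 2.80% of all genes. Housekeeping genes (ribosomal, proteasomal, mitochondrial and similar) were 4 of 248 (1.61%), against 1.88% next to gaps of 200 to 500 kb and 3.32% of all genes. Among flanking genes of every kind, 75 of 461 were lncRNAs (16.3%), compared with 14.3% next to gaps of 200 to 500 kb and 7.75% next to all shorter gaps. These are counts from the gene table with no test. The gene lists match symbols and were chosen with earlier results of these data known. L and S homeologs count as separate genes.

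The transcription factors next to the longest deserts included regulators of the nervous system and of patterning. The gene bcl11b, a zinc finger factor of neurons and T cells, bordered a desert on 8S (1050 kb) and on 8L (874 kb). The neural POU factor pou3f1 bordered deserts on 2L (865 kb) and 2S (855 kb). Others were znf703.S (1018 kb), nkx6-1.L (793 kb), bcl11a.L (786 kb), maf.L (740 kb), klf6.S (727 kb), sall3.S (713 kb), sall3.L (628 kb), id2.L (692 kb), id2.S (654 kb), tshz3.S (639 kb) and isl1.S (638 kb). On the adhesion side, the list included the protocadherins pcdh17, pcdh18, pcdh10 and pcdh7, the cadherins cdh8, cdh11 and cdh12, the axon guidance receptors robo1, unc5d and epha4, and the synaptic organisers slitrk1, lrrc4c and flrt2. These adhesion genes, all of the list, are examples picked after the values were seen.

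Broad peaks were sparser in deserts than in shorter gaps in both replicates. Replicate 1 had 106.7 peaks per Mb in deserts and 119.8 in all shorter gaps, and replicate 2 had 91.4 and 102.1. The difference was -11.9 ± 1.69 peaks per Mb (SD, n = 2), and the ratio of deserts to shorter gaps was 0.893 ± 0.00313 (SD, n = 2), or 10.7% lower. Peaks covered 4.40% and 4.18% of desert sequence, compared with 5.02% and 4.72% of shorter gaps, a ratio of 0.882 ± 0.00587 (SD, n = 2). In peaks per Mb, the replicates differed from each other more than deserts differed from shorter gaps. In covered share they differed less than deserts did from shorter gaps (-0.615 and -0.539 points). For both measures the ratio within each replicate was nearly the same.

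The density fell with gap length over the whole range, and the deserts were the end of this decline. In replicate 1 it was 126.4 peaks per Mb in gaps under 10 kb, 126.2 at 10 to 50 kb, 122.9 at 50 to 100 kb, 118.0 at 100 to 200 kb and 111.8 at 200 to 500 kb. Replicate 2 gave 109.2, 107.6, 104.8, 100.7 and 94.9 in the same order. Against gaps of 200 to 500 kb alone the ratio of deserts was 0.959 ± 0.00665 (SD, n = 2), so most of the difference from shorter gaps was already present there. Gene spans showed a like difference by length. Merged gene spans carried 119.5 and 101.6 peaks per Mb, close to all shorter gaps, and gene spans of 200 kb or more carried 110.2 and 93.1, between deserts and all shorter gaps.

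**Figure D1:**
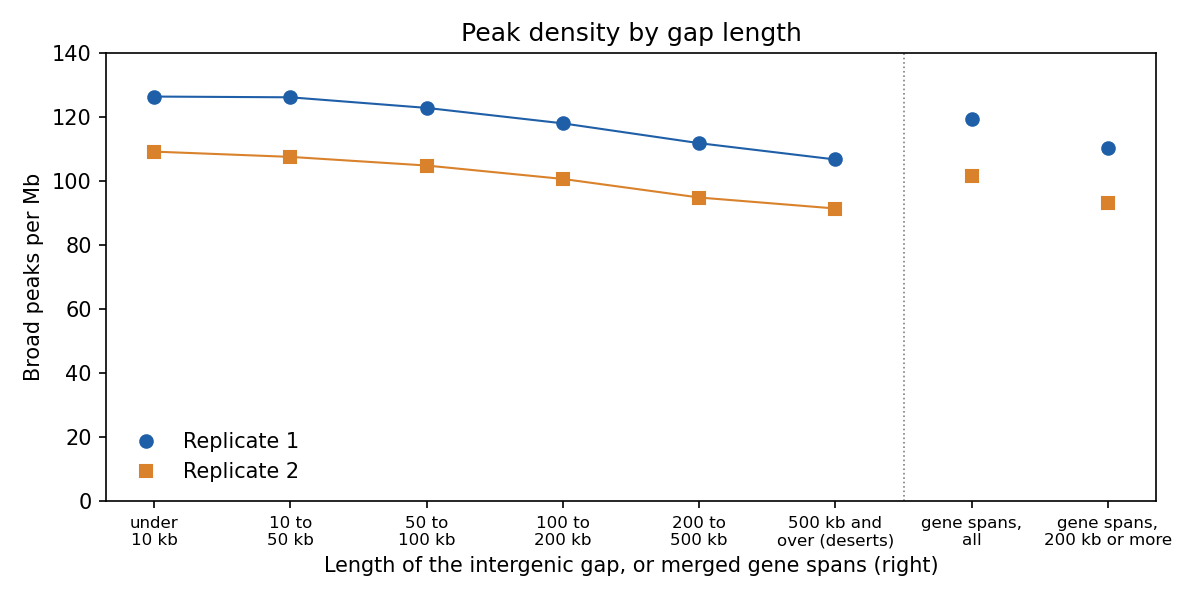
Broad peaks per Mb (vertical axis) in intergenic gaps grouped by length, and in merged gene spans to the right of the dotted line. Circles are replicate 1 and squares replicate 2. Both replicates decline with gap length, to 106.7 and 91.4 peaks per Mb in deserts.

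On single chromosomes the same direction held with few exceptions. Deserts had fewer peaks per Mb than shorter gaps on 18 of 18 chromosomes in replicate 1 and on 17 of 18 in replicate 2. The mean difference ran from -23.6 peaks per Mb on 8L to -0.529 on 5S, with a median of -11.2. On 5S, replicate 2 had 105.2 peaks per Mb in deserts and 102.8 in shorter gaps, the only chromosome with more in deserts. By covered share, 5S deserts minus shorter gaps was -0.0339 points in replicate 1 and 0.322 in replicate 2 (mean 5.08% and 4.93%). Without its densest desert, described below, 5S fell to 100.4 peaks per Mb in replicate 2 and from 118.8 to 114.4 in replicate 1. Both were below the shorter gaps of that chromosome (102.8 and 122.1). That desert was picked by its density and only on this chromosome, so leaving it out could only lower the value. Deserts fell below gaps of 200 to 500 kb on 13 of 18 chromosomes in replicate 1 and on 12 of 18 in replicate 2, a less even picture than the comparison with all shorter gaps.

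**Figure D2:**
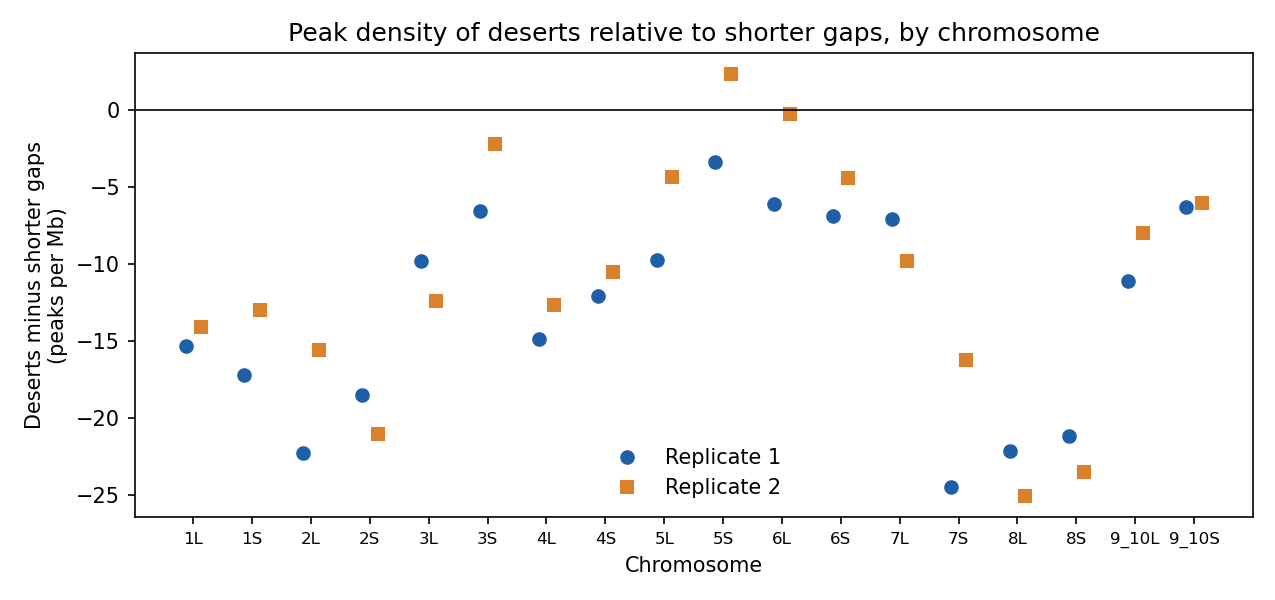
Difference in peaks per Mb between deserts and shorter gaps (vertical axis) on each of the 18 chromosomes, circles for replicate 1 and squares for replicate 2. All points lie below 0 except replicate 2 on 5S. Chromosome 8L has the lowest mean, -23.6 peaks per Mb.

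Deserts of the S subgenome carried more peaks per Mb than those of L. Pooled over chromosomes, replicate 1 had 109.7 on S and 103.9 on L, and replicate 2 had 94.9 and 88.0. The S member was higher in 8 of 9 chromosome pairs in each replicate, and in 7 of 9 for the mean of both, with a median difference of 5.50 peaks per Mb. Shorter gaps differed the same way, with 122.0 on S and 117.9 on L in replicate 1, and 104.4 and 100.1 in replicate 2.

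Individual deserts covered a wide range that both replicates saw alike. Replicate 1 ran from 63.8 through a median of 103.2 to 215.0 peaks per Mb, and replicate 2 from 53.2 through 88.6 to 209.9. Spearman's rho between the replicates was 0.887 over the 238 deserts. This is a description across regions, which share libraries, caller and motif content. The density had little relation to desert length (rho = -0.07, n = 238). It followed the density of the 500 kb on either side of the desert (rho = 0.63, n = 238), which can include parts of other deserts.

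**Figure D3:**
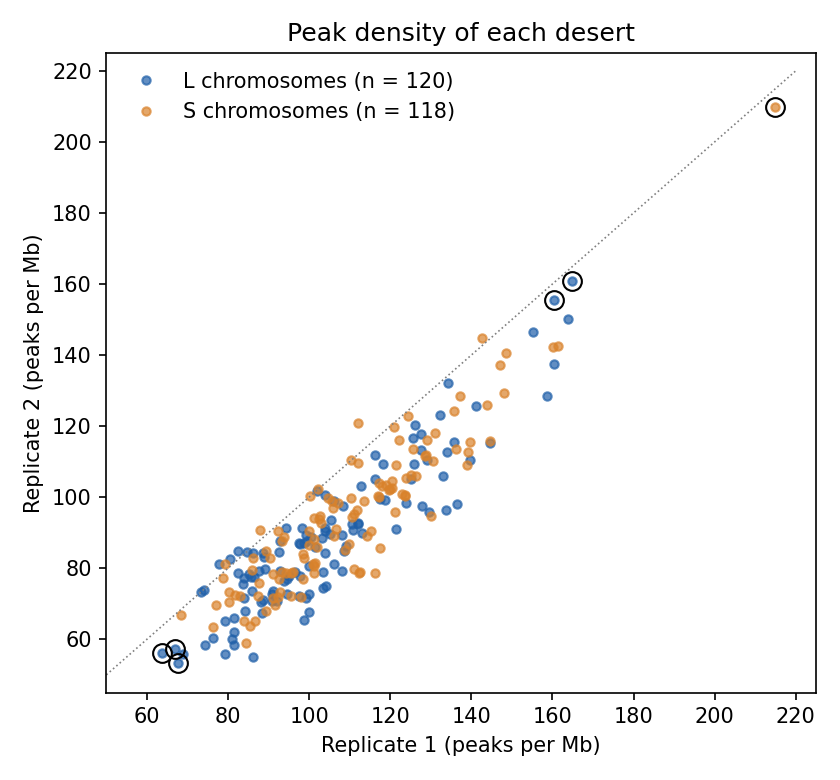
Peaks per Mb of each of the 238 deserts in replicate 1 (horizontal axis) and replicate 2 (vertical axis), coloured by subgenome, with the line of equality dotted. Black rings mark the 3 densest and the 3 sparsest deserts. The single desert at the upper right is the one beside des.2.S, at 215.0 and 209.9 peaks per Mb.

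Counted one by one, 164 of 238 deserts (68.9%) lay below the pooled density of shorter gaps in both replicates, against 56.3% of the 1164 gaps of 200 to 500 kb. Each replicate by itself gave 73.5% of deserts, against 64.5% of these gaps in replicate 1 and 62.6% in replicate 2. These gaps are themselves part of the pooled shorter gaps. A stricter comparison used the 500 kb on each side of each region, with genes and any neighbouring deserts included. Where deserts lie close together, it sets a desert partly against another desert. By this measure 127 of 238 deserts (53.4%) were below their own surroundings in both replicates, compared with 43.0% of the gaps of 200 to 500 kb. In single replicates the shares were closer, at 62.6% against 56.7% in replicate 1 and 61.8% against 55.0% in replicate 2. The median difference between a desert and its surroundings was -5.76 peaks per Mb (mean of both replicates, range -67.7 to 107.4).

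The sparsest deserts were those beside ncam2.L, fat4.L and sall3.L. Between the neural adhesion gene ncam2.L and the lectin gene chodl.L (chromosome 2L, 19021665 to 19538760) replicate 1 had 33 peaks and replicate 2 had 29, a density of 60.0 ± 5.47 peaks per Mb (SD, n = 2). Its own surroundings carried 96 and 95 peaks per Mb. The desert between LOC108699681 and fat4.L, an atypical cadherin gene (1L, 68346066 to 68965976), held 42 and 33 peaks, or 60.5 ± 10.3 per Mb. The desert between the zinc finger factor gene sall3.L and LOC108718538 (6L, 103529575 to 104157908) held 42 and 36 peaks, or 62.1 ± 6.75 per Mb, and included a stretch of 89812 bp without a peak in replicate 1. In each of these the covered share was 2.31% to 2.73% in either replicate, and each was lower than its surroundings in both.

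The densest desert stood far from all others. It lies on 5S between des.2.S, a desmin gene, and the lncRNA LOC121394247 (69146833 to 69732954). Replicate 1 had 126 peaks and replicate 2 had 123, so 212.4 ± 3.62 peaks per Mb (SD, n = 2), and 11.9% and 13.4% of its sequence was covered. Its surroundings had 119.0 and 91.0 peaks per Mb. Of its peaks, 105 in replicate 1 and 104 in replicate 2 were shared between the lists. Next came the desert of LOC121393684 and the centrosomal gene cep170.L (5L, 60969160 to 61708884), with 122 and 119 peaks and 162.9 ± 2.87 per Mb, and that of LOC121403666 and LOC108719752 (1L, 93603733 to 94221376), with 99 and 96 peaks and 157.9 ± 3.43 per Mb. Unlike the first, these differed little from their surroundings. Those had 168.0 and 146.0 peaks per Mb on 5L and 171.0 and 156.0 on 1L. On 1L, the side towards nkx6-1.L lay mostly within another dense desert, with 155.2 and 146.4 peaks per Mb.

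The 6 longest deserts ran from 69.9 to 132.8 peaks per Mb (mean of both replicates). The longest, between pik3c3.S, encoding a class III phosphoinositide kinase, and LOC108705540 (1S, 196232109 to 197557472), held 164 and 133 peaks, or 112.0 ± 16.5 per Mb. The next, between tdrd3.S and the protocadherin gene pcdh17.S (2S, 121149307 to 122397224), held 145 and 98 peaks, the widest gap between replicates of the 6, at 97.4 ± 26.6 per Mb. On 8L, the desert of sel1l.L, a gene of protein quality control in the endoplasmic reticulum, and LOC108698698 (74919385 to 76082203) held 98 and 79 peaks (76.1 ± 11.6 per Mb).

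By contrast, the desert of tox3.S, an HMG-box gene, and LOC121393216 (4S, 30921951 to 32073929) held 158 and 148 peaks, or 132.8 ± 6.14 per Mb, above its surroundings of 119.0 and 109.0. The desert of LOC108712291 and the prion protein gene prnp.S (3S, 29285603 to 30418221) held 141 and 139 peaks, or 123.6 ± 1.25 per Mb. The last of the 6, of LOC108706623 and LOC108704291 (1S, 35257548 to 36359270), held 84 and 70 peaks, or 69.9 ± 8.99 per Mb. Long deserts were therefore found both above and below the density of shorter gaps.

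**Figure D4:**
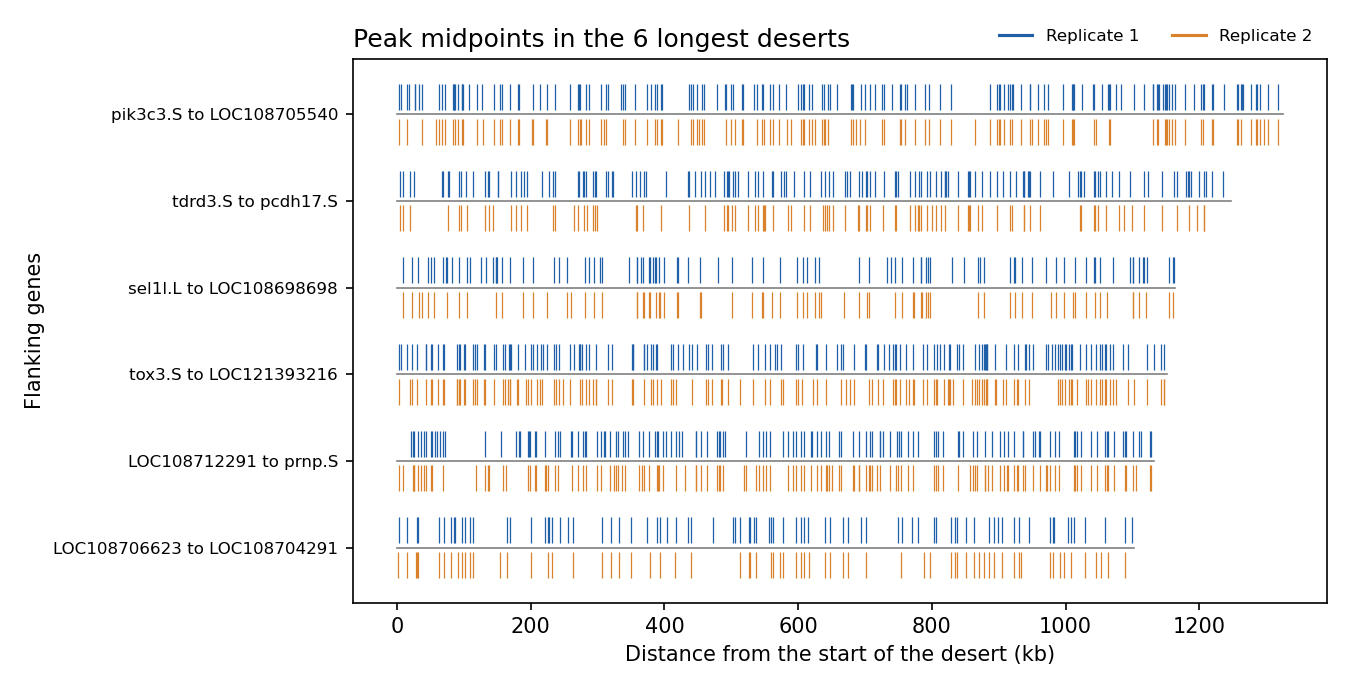
Midpoints of peaks along the 6 longest deserts, as distance in kb from the start of each desert (horizontal axis), with replicate 1 above and replicate 2 below each line. The tox3.S desert holds 158 and 148 peaks, and the LOC108706623 desert 84 and 70.

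On both sides of the length limit the values overlapped. Just above 500 kb, the desert of the neural POU factor gene pou3f2.S (5S, 500032 bp) held 51 and 43 peaks, and that of mdga2.S and the ribosomal protein gene rps29.S (8S, 502368 bp) held 59 and 43. Just below, the gap of LOC121402172 and the leptin gene lep.S (3S, 499201 bp) held 51 and 45, and that of LOC108719399 and the hyaluronan synthase gene has2.L (6L, 498670 bp) held 61 and 57.

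Within deserts, the density declined slowly away from genes. At 10 to 50 kb from the nearest gene it was 113.7 peaks per Mb in replicate 1 and 95.5 in replicate 2. Beyond 250 kb it was 104.5 and 89.2. The ratio of this interior to the outermost 50 kb was 0.927 ± 0.00201 (SD, n = 2), and the interior was lower on 13 of 18 chromosomes in replicate 1 and on 15 of 18 in replicate 2. The outermost 10 kb, which cover 4.76 Mb in all, had 108.0 and 99.8 peaks per Mb and no common direction against the next 40 kb.

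At equal distance from a gene the density was mostly higher in shorter gaps. At 10 to 50 kb from a gene, gaps of 200 to 500 kb had 115.2 and 98.2 peaks per Mb, gaps of 50 to 100 kb had 123.2 and 104.8, and gaps of 10 to 50 kb had 126.5 and 108.4. Against gaps of 200 to 500 kb the difference was small and not present in every bin. At 50 to 100 kb deserts had 109.2 and 92.1 and these gaps 112.1 and 95.3, while at 100 to 250 kb replicate 1 had 105.4 and 108.5 and replicate 2 had 90.9 in each.

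**Figure D5:**
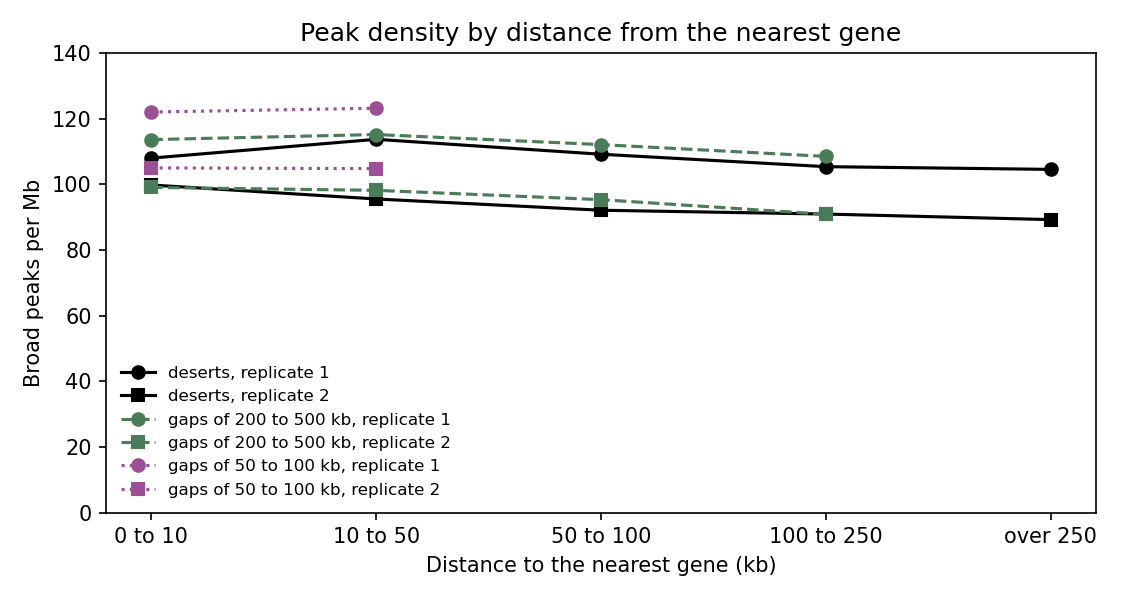
Broad peaks per Mb (vertical axis) by distance to the nearest gene (horizontal axis, kb) in deserts (solid), gaps of 200 to 500 kb (dashed) and gaps of 50 to 100 kb (dotted), circles for replicate 1 and squares for replicate 2. In deserts replicate 1 declines from 113.7 at 10 to 50 kb to 104.5 beyond 250 kb. Shorter gaps have no sequence at the larger distances.

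Stretches of at least 50 kb without a peak in either replicate took up a small share of the deserts. There were 36 of them in 31 deserts (13%), with 2.22 Mb or 1.35% of desert length. In gaps of 200 to 500 kb such stretches made up 1.16% of the length and occurred in 5.15% of the gaps, although a longer region has more room for one. Per 100 Mb there were 21.9 such stretches in deserts and 18.4 in these gaps. Leaving them out raised the desert density to 108.2 and 92.7 peaks per Mb, still below that of gaps of 200 to 500 kb treated alike (113.1 and 96). Cut into windows of 10 kb, 25.4% of desert windows had no peak in either replicate, compared with 23.4% in gaps of 200 to 500 kb and 20.6% in gaps of 50 to 100 kb. Windows with at least 3 peaks in both replicates made up 2.72%, 3.01% and 4.22%. Windows with at least 5 peaks were rare, and here deserts were above gaps of 200 to 500 kb, with 0.147% against 0.108% in replicate 1 and 0.0857% against 0.0380% in replicate 2. Gaps of 50 to 100 kb were above deserts, with 0.220% in replicate 1 and 0.103% in replicate 2. The fullest window, on 5S 660 kb into the desert of LOC108704892 and LOC121394226, held 5 and 6 peaks. Windows without a peak were thus more frequent in deserts than in both shorter classes. The few windows with at least 5 peaks were more frequent than in gaps of 200 to 500 kb and less frequent than in gaps of 50 to 100 kb. These small shares are of 16345 desert windows and 34189 windows of gaps of 200 to 500 kb. Several of the fullest desert windows lay in the same desert, such as that of trnaq-cug and LOC121395768 on 7L.

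The peaks that deserts did hold were much like peaks elsewhere. Median widths of 335 and 369 bp in the replicates compared with 337 and 375 bp in shorter gaps. The median fold enrichment, the authors' ratio of pileup to background, was 4.34 and 4.49 in deserts and 4.34 and 4.50 in shorter gaps, a difference of -0.00579 ± 0.0114 (SD, n = 2). The median -log10 q was 4.82 and 5.56 in deserts and 4.90 and 5.72 in shorter gaps. Peaks of the smallest width in a list made up 39.3% and 38.7% in deserts and 37.6% and 37.0% in shorter gaps.

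Peaks in desert interiors were close to peaks near genes, with slightly lower medians of fold enrichment and width in both replicates. The median fold enrichment was 4.54 and 4.49 within 10 kb of a gene and 4.32 and 4.45 beyond 250 kb. The median width was 337.5 and 377 bp near genes and 333 and 368 bp in the interior. Of interior peaks, 66.1% and 77.3% were shared, compared with 69.3% and 75.4% within 10 kb, so the replicates differed in direction.

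Sharing between replicates, counted from an overlap of 1 bp upwards, was slightly lower in deserts. It reached 66.1% of replicate 1 peaks and 76.9% of replicate 2 peaks, compared with 66.9% and 78.2% in shorter gaps, a difference of -1.10 ± 0.316 percentage points (SD, n = 2). Set against gaps of 200 to 500 kb the difference turned to 0.140 points. In the upper 25% by fold enrichment, 92.6% and 97.2% of desert peaks were shared, against 93.4% and 97.6%. The rank correlation of fold enrichment between replicates over shared peaks was 0.62 in deserts (n = 11604 pairs) and 0.63 in shorter gaps (n = 99070 pairs). These are correlations across peaks, which are not independent replicates.

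The strongest shared peaks of the genome included desert peaks at about the deserts' share of all shared peaks. Of 216946 shared peaks of replicate 1, 11604 (5.35%) lay in deserts, and among the 10000 highest by geometric mean of fold enrichment 566 did (5.66%). The highest 1000 held 70 (7.0%) and the highest 100 held 6.

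The 5 strongest desert peaks were narrow and nearly identical in both lists. The highest lay on 9_10L (69918036 to 69918382), 21.3 kb from the nearest gene, in the desert between kcnj3.L, a potassium channel gene, and nr4a2.L, an orphan nuclear receptor gene with a known role in mammalian dopamine neurons. Its fold enrichment was 27.1 in replicate 1 and 25.7 in replicate 2. Its -log10 q of 756.7 and 817.5 stood well above those of the others, which ran from 179.1 to 428.2. What sets this peak apart was not tested. A peak on 3L (128014134 to 128014480), 194.5 kb from the nearest gene, had 25.6 and 25.4. The third lay 209.8 kb from a gene in the desert of sall3.S and the galanin receptor gene galr1.S (6S, 84803020 to 84803366), with 24.6 and 24.2. The desert of ppargc1a.S, a coactivator of mitochondrial genes, had a peak of 24.0 and 24.1 (1S, 20740677 to 20741023). In the desert of the transcription factor gene ets1.L, a peak 182.4 kb from a gene had 22.6 and 23.7 (7L, 74485732 to 74486078). All 5 were 347 bp wide in replicate 1, and in replicate 2 the first was 363 bp wide and the others 351 bp. The desert of sall3.S as a whole had 91.1 and 71.5 peaks per Mb, below the median desert in both replicates, and that of sall3.L 66.8 and 57.3.

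The longest shared peaks were wide, with fold enrichments nearer to the list medians, and all 3 lay on 5S. The longest overlap, 1676 bp (69436790 to 69438571 in replicate 1), was in the densest desert, beside des.2.S, at a fold enrichment of 3.68 and 4.20. The others lay in the desert of LOC108704892 and LOC121394226, with overlaps of 1414 bp (from 54822648) and 1413 bp (from 54691709) and a fold enrichment of 5.31 and 4.62 and of 6.22 and 5.76. That desert had 120.9 and 119.7 peaks per Mb. Among the upper 10% of shared desert peaks, the 2 farthest from any gene lay between tdrd3.S and pcdh17.S, 608.6 and 595.9 kb from the nearest gene (2S, from 121757671 and from 121800940). Their fold enrichment was 8.82 and 9.58 for the former and 8.60 and 8.99 for the latter.

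Some deserts on L and S had the symbol of a flanking gene in common. The share of shorter gaps matched in the same way is not given, so the counts cannot be read as particular to deserts. In 49 pairs an L desert and an S desert on chromosomes of the same number shared the symbol of a flanking gene, which involved 88 of the 238 deserts, and in 11 pairs both symbols were shared. Matching used symbols without strand or side of the gene, so a gene with deserts on both sides, such as pcdh17, lrfn5, tshz3 or epha7, enters several pairs. For 58 deserts both flanking genes were also found on the other subgenome. In 24 of them no gene lay between the homeologs there. Of these, 22 are the 11 pairs with both symbols shared, counted from each side. In the other 2, the homeologous gap was shorter than the desert limit, at 371.0 kb for tshz3 and znf536 on 4L and 430.5 kb for kif26a and tmem179 on 8S. Over the 11 pairs the S desert had a median of 0.952 times the length of the L desert (0.802 to 1.04), and it was the shorter in 9.

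Peak density agreed only loosely within the pairs matched by symbol. Most of the 49 pairs share only 1 flanking symbol, and some set opposite sides of a gene against each other. Their intervals need not be homeologous, and how far this loosened the agreement was not tested. Over the 49 pairs, Spearman's rho of the L and S densities was 0.49, and S was higher in 30 pairs in replicate 1 and in 31 in replicate 2, with a median difference of 4.20 peaks per Mb for the mean of both. Where both flanking symbols were shared, S was higher in 5 of 11 pairs and the median was -1.72.

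The pairs of greatest summed length differed to varying degrees. All but adm and lrrc4c share only 1 flanking symbol, so the intervals need not match. The pcdh17 deserts spanned 731 kb on L and 1248 kb on S, and the tox3 deserts 777 kb and 1152 kb. The S desert of pcdh17 runs from tdrd3 to pcdh17. On 2L these genes lay 1227 kb apart with 3 genes between, or 0.983 times the S length. That whole stretch had 88.8 and 72.5 peaks per Mb. The prnp deserts had 129.6 and 95.8 peaks per Mb on L and 124.5 and 122.7 on S, so the replicates differed in direction. For pcdh17 the values were 87.6 and 79.4 on L and 116.2 and 78.5 on S. The tox3 deserts gave the largest difference of all 49 pairs, with 82.4 and 78.5 on L and 137.2 and 128.5 on S. In bcl11b the subgenomes were close, at 95.0 and 77.8 on L and 90.4 and 82.8 on S. The adm and lrrc4c deserts, sharing both flanks, had 117.5 and 99.4 on L and 118.8 and 103.5 on S. The matr3 deserts had 110.7 and 90.7 on L and 117.2 and 103.9 on S.

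Deserts bounded by the same 2 genes on both subgenomes included several with a gene of the neural adhesion list on at least 1 side. Between the latrophilin gene adgrl2 and adgrl4, another adhesion G protein-coupled receptor gene, densities were 92.0 and 70.9 on L and 87.3 and 72.1 on S. The slitrk1 and spry2 deserts had 103.8 and 84.2 on L and 101.4 and 81.4 on S. The plxna1 and txnrd3 deserts, next to a semaphorin receptor gene, had 139.6 and 110.6 on L and 135.7 and 124.1 on S. Differences in these 3 pairs were small or changed direction between replicates. The lrfn5 and fbxo33 deserts differed more, with 104.1 and 74.9 on L and 68.3 and 66.9 on S. The kcnt2 and cdc73 deserts had 86.3 and 84.2 on L and 102.2 and 102.2 on S. These pairs were picked after their values were seen. At the low end of S minus L, the pou3f1 deserts between rragc and pou3f1 had 112.2 and 92.5 on L and 81.8 and 72.5 on S, although the deserts were nearly of one length (865 and 855 kb).

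Deserts beside developmental transcription factors had somewhat fewer peaks per Mb than deserts as a whole. The 32 of them had 100.9 peaks per Mb in replicate 1 and 87.8 in replicate 2 when pooled, against 106.7 and 91.4 in all deserts, and 19 of the 32 were below the median of all deserts. They ranged from 62.1 at sall3.L to 150.8 at nkx6-1.L (mean of both replicates). The 53 deserts beside neural adhesion and synapse genes had 102.2 and 87.0 peaks per Mb, with 32 of 53 below the median. By definition, 119 of all 238 deserts lie below that median. The SD over all deserts was 22.1 peaks per Mb in replicate 1 and 21.9 in replicate 2, larger than these differences. The deserts of both lists are part of all deserts, and the differences were not tested.

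The adhesion list goes by gene symbol and is incomplete. It leaves out ncam2.L and fat4.L, whose deserts, given above, were sparser than any on the list. In 4 deserts both flanking genes belonged to the adhesion list. The desert between the protocadherin genes pcdh18.L and pcdh10.L (935 kb) had 85 and 68 peaks, or 90.9 and 72.7 per Mb, and lay 10.3 peaks per Mb above its surroundings. Between the cadherin genes cdh8.L and cdh11.L (861 kb) there were 89 and 64 peaks, or 103.4 and 74.3 per Mb, 12.4 above the surroundings. The adgrl2 and adgrl4 deserts given above differed from theirs by -2.06 on L and 2.21 on S. At the dense end of the list, the desert beside plxna1.S had 94 and 86 peaks in 693 kb, or 135.7 and 124.1 per Mb. The desert beside unc5c.L, a netrin receptor gene, was the sparsest of the list, with 37 and 30 peaks in 538 kb (68.8 and 55.8 per Mb). These deserts were likewise named after their values were seen.

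Among the developmental factors, single deserts differed widely. The desert of nkx6-1.L, a homeobox gene of motor neuron and pancreas development, had 123 and 116 peaks in 793 kb (155.2 and 146.4 per Mb). The desert of bcl11a.L had 64 and 46 peaks in 786 kb (81.4 and 58.5 per Mb) and differed from its surroundings by -41.5 peaks per Mb. That of pou3f1.S had 70 and 62 peaks in 855 kb and differed by -64.8. The deserts of sox9, a factor of cartilage and gonad development whose long upstream desert holds distant enhancers in mammals, were named after their values were seen. They had 132.2 and 123.2 peaks per Mb on 9_10L and 120.4 and 104.6 on 9_10S, above the pooled deserts in both replicates. From their own surroundings they differed by 12.7 peaks per Mb on 9_10L and by -14.5 on 9_10S. All deserts of 9_10L together had 113.8 and 98.4, and all of 9_10S had 120.3 and 102.8, close to the sox9 desert there.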

How the data were processed

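Accessible DNA was measured by CATaDa in 2 replicates of 1 group. The authors cut methylated motifs with DpnI, removed unmethylated fragments with DpnII, aligned paired-end reads with Bowtie2 in the damidseq pipeline to X. laevis v10.1 and called broad peaks per replicate with MACS3 3.0.1. The control and cutoff of the caller are not given in the sources used here. The deposited lists hold each peak's start and end (other score columns were not used), the authors' fold enrichment (a ratio of pileup to background, averaged over the peak) and the authors' -log10 q. They hold no read counts. Non-injected libraries were not analysed here.

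Gaps came from 44438 genes of the RefSeq table of assembly 10.1, merged into 40011 spans. A desert depends on this table, and a missing gene would lengthen a gap. The table gives no strand, exon or sequence, so no sequence is shown. Peaks were counted by midpoint, and coordinates count from 1. Chromosome length was the last coordinate seen. Python 3.11.15, numpy 2.4.6 and pandas 2.3.3 were used. Counting was tested on simulated peaks with a planted ratio of 0.9 and 0.889 recovered.

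The members and gene lists were chosen with earlier results of these data known. Named deserts were the 6 longest, the 3 densest and 3 sparsest, 2 on each side of 500 kb and the 6 longest homeologous pairs. Named peaks were the 5 strongest shared ones, the 3 of longest overlap and the 2 farthest from genes. Named genes flank these or are developmental factors (up to 15). Alternatives concerned peak filters, desert length, gene biotype, chromosome ends, empty stretches, comparison gaps and replicates. The comparison with gaps of 200 to 500 kb or with 500 kb flanks, and the omission of single replicates for homeologous pairs, were added after seeing the data.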

Additional observations from a re-analysis of the deposited data

How the results depend on the processing

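Results were recomputed under 66 combinations of a result and a setting with both replicates. Of these, 41 moved by less than the spread between replicates or, for counts, by less than 1.5 times, 21 moved further and 4 changed sign. The main ratio of peaks per Mb in deserts over shorter gaps, 0.893, was 0.915 with deserts of 1 Mb and over, 0.906 with protein-coding genes only, 0.899 with empty stretches left out, 0.917 against gaps of 50 to 500 kb, 0.959 against gaps of 200 to 500 kb and 0.865 for the median desert. The ratio of covered bases, 0.882, was 0.876 with deserts of 300 kb and over, 0.899 with 1 Mb, 0.898 with protein-coding genes, 0.888 without empty stretches, 0.908 against gaps of 50 to 500 kb and 0.956 against gaps of 200 to 500 kb. Every ratio stayed below 1. The difference in shared peaks was -1.56 points with 300 kb, -2.52 with 1 Mb, -0.716 against gaps of 50 to 500 kb and 0.140 against gaps of 200 to 500 kb. The difference in median fold enrichment, -0.00579, was -0.0298 in the upper 50% of peaks, 0.00527 with 300 kb and 0.0345 with 1 Mb, so it has no settled sign. The interior ratio, 0.927, was 0.940 without empty stretches. Deserts of 1 Mb occurred on 10 chromosomes and were lower on 8. The number of deserts was 726 at 300 kb and 14 at 1 Mb, as the limit itself sets. With both symbols required, 11 homeologous pairs remained and their median S minus L was -1.72 peaks per Mb. The cause of these changes was not tested.

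With a single replicate the ratio of peaks per Mb ran from 0.891 to 0.895, that of covered bases from 0.877 to 0.886, the difference in shared peaks from -1.32 to -0.877 points, that in median fold enrichment from -0.0138 to 0.00226, the interior ratio from 0.926 to 0.929, the median desert from 88.6 to 103.2 peaks per Mb, the chromosomes lower in deserts from 17 to 18 and the homeologous difference from 3.14 to 4.01. Depth is unknown, so how far it limits these lists cannot be given. No paired analysis was possible because only 1 group was analysed here, so no groups share replicate numbers. Values within a replicate are compared as ratios above.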
